A study of Mus musculus with 6 samples.

Results

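The genes described here are the nuclear genes for respiratory complexes II to V of the mitochondrial inner membrane, in inguinal subcutaneous white adipose tissue (SC-WAT) with and without the transcription factor EGR1. They were chosen by symbol among protein-coding genes of the GENCODE annotation: Sdha to Sdhd and the Sdhaf genes, the Uqcr and Uqcc genes, Cyc1, Cycs, and the Cox4 to Cox8 and Atp5 genes. The Cox4i, Cox6a, Cox7a and Cox8 genes of cytochrome oxidase, which include tissue-specific isoforms, were left out by the rule. Cox6b2 and Cox7b2, forms known from testis, were kept by it. This gave 46 of the 47069 genes in the files, 8 for complex II, 13 for complex III with cytochrome c, 8 for complex IV and 17 for complex V. RNA was sequenced from whole fat pads of 3 Egr1+/+ and 3 Egr1-/- female C57BL/6 mice (the J substrain, by the study's methods) aged 2 weeks, untreated in both groups, with 1 library per mouse. The Egr1-/- mice carried the Egr1 gene inactivated in all cells by a LacZ insertion and a frameshift, and they came from crosses of heterozygotes, so the deletion was neither limited to fat cells nor to a stage. The 6 mice came from 4 litters and a pair of them, 1 of each genotype, were littermates, so the mice of a group may not be fully independent. The question was which of these genes differed between the genotypes in a fat depot that the study examined for beige adipocytes.

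Complex II oxidises succinate and passes the electrons to ubiquinone. Complex III hands them from ubiquinol to cytochrome c, complex IV from cytochrome c to oxygen, and complex V (ATP synthase) uses the proton gradient built by complexes I, III and IV to make ATP. In beige and brown adipocytes, which hold many mitochondria, the uncoupling protein UCP1 lets protons return without ATP synthesis, so that respiration gives heat. Complex II is made of nuclear-encoded subunits alone, whereas complexes III to V also hold subunits encoded by the mitochondrial genome.

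Counts on genes summed to between 29661984 and 42357981 per mouse, of which genes of the mitochondrial genome took 49.97% to 66.3%. Nuclear genes kept at least 12572968 counts in every mouse. Egr1 itself had 10.3, 8.02 and 16.5 CPM in the Egr1+/+ mice and 3.09, 2.71 and 1.84 CPM in the Egr1-/- mice, without overlap. CPM here is the TMM-normalized count rate of edgeR, in which the library size is corrected for composition. The tissue had the RNA of adipocytes: of 9 general adipocyte markers, Fabp4 ran from 2980 to 4200 CPM and Adipoq from 551.5 to 920.2 CPM. The 13 skeletal muscle markers differed widely between mice of a genotype, with a summed level of 237 to 3863 CPM in Egr1+/+ mice and 115 to 3073 CPM in Egr1-/- mice. Mammary epithelial RNA was near absent, with a summed level of 3.11 to 14.1 CPM for 7 markers including Epcam and Krt14. In bulk tissue, fewer cells of a type and less RNA per cell cannot be told apart.

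The complexes II to V genes were higher in Egr1-/- SC-WAT nearly throughout, by small amounts. Of the 45 tested genes, 43 (95.6%) had a positive log2 fold change, against 50.1% of the 17667 genes tested, and the median log2 fold change was 0.27 against 0.00 for all genes. None passed the threshold on its own: 0 of 45 had an adjusted p under 0.05 (quasi-likelihood F test of edgeR, adjusted after Benjamini and Hochberg over all 17667 genes), where 3 of all genes did (0.0170%). At an unadjusted p under 0.05, 12 of 45 were higher against a background of 5.06%, and 0 were lower against a background of 5.60%. In 11 of 45 (24.4%) every Egr1-/- mouse was above every Egr1+/+ mouse, against 8.15% of all genes, and 0 of 45 were fully below, against 8.10%. DESeq2 called 1 of the 45, Cox5a, among the higher genes, against a background of 0.736%. Scaling by total counts alone, under which the median of all genes was -0.15, left 34 of 45 members (75.6%) higher, 2 at an unadjusted p under 0.05 against 0.962% of all genes, and 2 without overlap against 1.44%. The members share cells and mice, so these counts are not independent of each other and no test was made over the list.

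**Figure D1:**
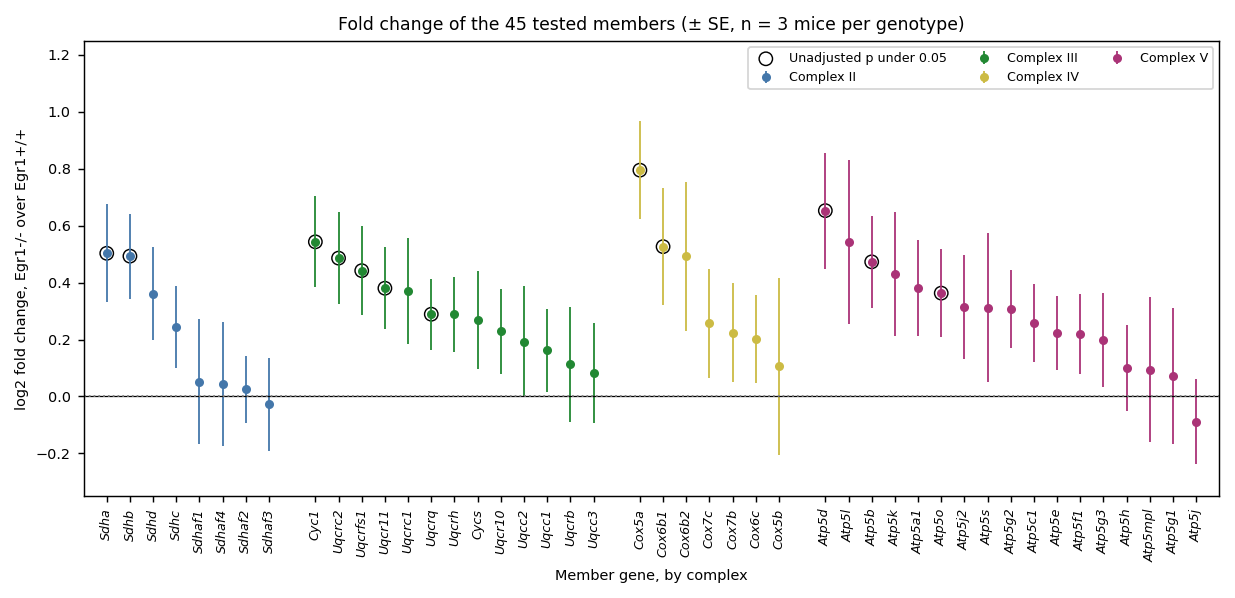
The log2 fold change of each of the 45 tested genes (points, with bars for the standard error, n = 3 mice per genotype) is plotted by complex and, within a complex, from highest to lowest, with circles around the 12 genes with an unadjusted p under 0.05. All but Sdhaf3 and Atp5j lie above 0, Cox5a is the highest at 0.80, and the assembly factors of complex II lie near 0.

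The size of the difference depended on which mice were compared. For each gene, the level in a mouse was taken as a log2 ratio to the Egr1+/+ mean, and the median over the 45 genes was computed. This median was 0.06, -0.02 and -0.05 in Egr1+/+ replicates 1 to 3 and 0.30, -0.004 and 0.48 in Egr1-/- replicates 1, 2 and 3. By this median over all members, Egr1-/- replicate 2 thus lay among the Egr1+/+ mice. Its median was above every Egr1+/+ mouse in complexes III (0.083 against at most 0.065) and IV (0.127 against at most 0.096). It was not so in complexes II (-0.073 against at most 0.034) and V (0.03 against at most 0.045). As a share of non-mitochondrial counts, the members made 1.271% in that mouse and 1.086% to 1.213% in the Egr1+/+ mice. Egr1-/- replicate 3 was the highest of all 6 mice for 36 of the 45 genes, and replicate 2 was the lowest of its genotype for 41. Without replicate 3 the median log2 fold change of the members was 0.19, and 4 members were higher at an unadjusted p under 0.05, against 2.57% of all genes tested. Without replicate 2 the median was 0.38, 24 members were higher at that p against 4.91% of all genes, and 30 were higher without overlap against 13.7%. Without Egr1+/+ replicate 3 the count at that p was 6 against 3.14%, and without Egr1+/+ replicate 2 there were 19 members without overlap against 14.0%.

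Levels of other cell types moved with these values in part. The summed level of 6 beige and brown adipocyte markers (Ucp1, Cidea, Dio2, Ppargc1a, Elovl3, Cox8b) was 637, 495 and 488 CPM in the Egr1+/+ mice and 1246, 881 and 1477 CPM in the Egr1-/- mice, so the Egr1-/- mice stood in the same order as for the members and none overlapped. Ucp1 was the largest part of this sum, with 305 to 400 CPM in Egr1+/+ mice and 571 to 949 CPM in Egr1-/- mice. Each tested marker had that order of the Egr1-/- mice. All 5 tested beige markers were higher without overlap, against 8.15% of all genes, from 0.76 to 1.91 on the log2 scale. Elovl3 was at most 0.81 CPM. The paper reports the tested markers as upregulated in these same mice, so their separation was known beforehand and is not independent evidence. The part of beige cells in the members' difference was not tested. Of the 9 general adipocyte markers 8 were lower in Egr1-/- mice, where 8809 of all 17667 genes tested were. Of the 9, 4 were lower at an unadjusted p under 0.05, against 5.60% of all genes. The sum of the 9 was 8984 to 9780 CPM in Egr1+/+ mice against 7345 to 8354 CPM in Egr1-/- mice. The summed muscle markers were 1236, 3863 and 237 CPM in the Egr1+/+ mice and 115, 405.5 and 3073 CPM in the Egr1-/- mice. Egr1-/- replicate 3 therefore had both the highest member levels and the highest muscle sum of its genotype. The sum was higher still in Egr1+/+ replicate 2, which had a member median of -0.02, but single markers differed in order. Myh1, Myh2 and Myh7 had 299, 63.3 and 42.7 CPM in Egr1-/- replicate 3 and 26.9, 4.46 and 0.599 CPM in Egr1+/+ replicate 2. The other muscle markers were higher in Egr1+/+ replicate 2. With log2 of the muscle sum as a covariate the median of the members was 0.30 and 15 were higher at an unadjusted p under 0.05, against 4.65% of all genes. Myh4 was the largest part of that sum in every mouse, so the covariate does not follow Myh1, Myh2 and Myh7 on their own. The part of muscle RNA in the members' difference was not tested. All 8 lymphoid markers had positive log2 fold changes, against 50.1% of all genes, with a median of 0.35. Of them 1 (Cd79a, at 0.93) had an unadjusted p under 0.05, where 5.06% of all genes were higher, and all 8 overlapped between the genotypes. Their sum was highest in Egr1-/- replicate 2, at 670 CPM against 313 to 443 CPM in the other 5 mice. The part of this RNA in the values of replicate 2 was not tested. Of 4 endothelial markers Tek was lower without overlap, as were 8.10% of all genes, and the others overlapped.

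**Figure D2:**
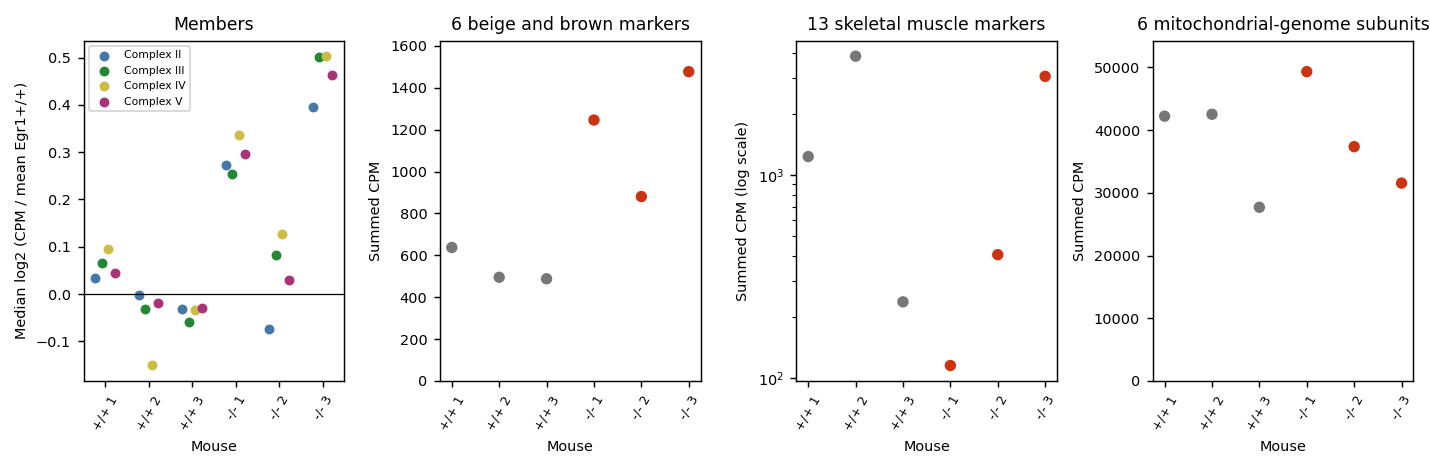
The first panel gives the median log2 ratio to the Egr1+/+ mean for the members of each complex in every mouse, and the others the summed CPM of beige and brown markers, of skeletal muscle markers (log axis) and of the 6 subunits encoded by the mitochondrial genome. In all 4 complexes Egr1-/- replicate 3 is highest and replicate 2 is the lowest of its genotype. Beige markers follow that order, muscle markers and mitochondrial-genome subunits do not.

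Promoters of the members were searched for letters of factors known to bind nuclear respiratory genes, and of EGR1. RefSeq gave a promoter (GRCm38.p6, 250 bases before to 50 after the start) for 36 of the 46 genes, and motifs were sought on either strand. The ETS letters CCGGAAG, a form bound by GABPA, stood in 13 of 36 promoters (36.1%), against 12.95% of the 17492 protein-coding genes with a promoter and 9.93% of all 27025. The NRF1 palindrome, GCGCA followed directly by TGCGC, stood in 3 (8.3%, against 1.47% of protein-coding and 1.07% of all genes), in Uqcrc1, Atp5g2 and Atp5k. The ERR letters TCAAGGTCA stood in Sdhd and Atp5g3 (5.6%, against 0.38% and 0.47%). An EGR form, GCGTGGGCG or GCGGGGGCG, stood in Sdhaf3 and Atp5g2 (5.6%, against 5.26% and 3.93%). On the log2 scale the median fold change was 0.29 in the 13 members with the ETS form and 0.26 in those without it. Letters are a description and not evidence of binding.

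Upstream bases of 4 genes, with motif letters in capitals, set the member with the lowest p beside a member for each motif found upstream of both the RefSeq and the GENCODE start. Cox5a (chr9:57520982-57521231, plus strand), the member with the lowest p, held none of the letters. Uqcr11 (chr10:80406831-80407071, minus strand) held the ETS form. Atp5g3 (chr2:73911327-73911576, minus strand) held the ERR form on the opposite strand, from 52 to 44 bases before the RefSeq start. Sdhaf3 (chr6:6955768-6956003, plus strand), which was not higher in Egr1-/- mice, held the ETS form and, from 34 to 26 bases before the RefSeq start, an EGR form.
Cox5a: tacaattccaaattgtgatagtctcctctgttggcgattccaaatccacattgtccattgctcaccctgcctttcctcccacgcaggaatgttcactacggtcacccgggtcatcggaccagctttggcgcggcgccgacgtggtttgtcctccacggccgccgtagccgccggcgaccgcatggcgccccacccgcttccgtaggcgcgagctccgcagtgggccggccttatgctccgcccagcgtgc
Uqcr11: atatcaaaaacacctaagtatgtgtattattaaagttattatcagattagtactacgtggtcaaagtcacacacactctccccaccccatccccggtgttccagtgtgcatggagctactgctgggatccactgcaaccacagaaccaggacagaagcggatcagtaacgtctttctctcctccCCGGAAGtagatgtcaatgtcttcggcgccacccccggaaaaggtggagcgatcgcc
Atp5g3: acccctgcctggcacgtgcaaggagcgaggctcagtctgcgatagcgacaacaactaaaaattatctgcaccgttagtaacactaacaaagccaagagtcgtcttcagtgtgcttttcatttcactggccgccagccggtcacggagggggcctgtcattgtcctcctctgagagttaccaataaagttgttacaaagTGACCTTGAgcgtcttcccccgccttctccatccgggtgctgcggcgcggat
Sdhaf3: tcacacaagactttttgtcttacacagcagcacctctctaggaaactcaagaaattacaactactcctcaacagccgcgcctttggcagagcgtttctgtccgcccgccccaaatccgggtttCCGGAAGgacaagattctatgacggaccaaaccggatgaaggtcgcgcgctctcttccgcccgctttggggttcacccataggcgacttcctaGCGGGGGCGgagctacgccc

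Complex II differed between its subunits and its assembly factors. The median log2 fold change was 0.43 for the 4 subunits and 0.03 for the 4 assembly factors. Sdha, the flavoprotein that oxidises succinate (GRCm38 chromosome 13, 74322254 to 74350280), had 355, 299.9 and 283 CPM in Egr1+/+ replicates 1 to 3 and 384, 397 and 549 CPM in Egr1-/- replicates 1 to 3, an order kept for all values by mouse. The genotypes did not overlap. Its log2 fold change was 0.50 (SE 0.172), and the edgeR adjusted p was 0.332. Sdhb, the iron-sulfur subunit that carries the electrons on (chromosome 4, 140961203 to 140979193), had 93.7, 102 and 96.7 CPM against 137, 111 and 163 CPM. It did not overlap either, and Egr1-/- replicate 2 was closest to the Egr1+/+ mice. The log2 fold change was 0.49 (SE 0.150, adjusted p = 0.286). The membrane anchors Sdhc and Sdhd overlapped. Sdhc had 93.9, 80.04 and 79.3 CPM against 100.3, 83.8 and 116 CPM, a log2 fold change of 0.24 (SE 0.145). Sdhd had 129, 132 and 133 CPM against 172, 129 and 205 CPM, a log2 fold change of 0.36 (SE 0.165), and replicate 2 alone of the Egr1-/- mice lay at the Egr1+/+ level.

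The assembly factors of complex II stayed near 0. Sdhaf3, which acts in the maturation of SDHB, had the highest p of the complex, with 4.57, 4.89 and 5.29 CPM in the Egr1+/+ mice and 4.98, 4.46 and 5.04 CPM in the Egr1-/- mice. The genotypes overlapped, although Egr1-/- replicate 2 was the lowest of all 6, with a log2 fold change of -0.03 (SE 0.163, adjusted p = 0.970). Sdhaf1, needed for the iron-sulfur clusters of SDHB, was at 0.05 on the log2 scale, Sdhaf2, needed to attach the flavin to SDHA, at 0.03 and Sdhaf4, a chaperone of flavinated SDHA, at 0.04. Of the exons of Sdhaf1, 69.6% lie opposite those of E130208F15Rik, and since the strand setting of the counting is not given in the sources used here, reads of the pair may not be told apart. E130208F15Rik had 428 counts over the 6 mice and Sdhaf1 had 2240.

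All 13 genes of complex III had positive log2 fold changes, against 50.1% of all genes, and Cyc1, Uqcrc2 and Uqcrfs1 had the lowest p. Cyc1, cytochrome c1 (chromosome 15, 76343523 to 76346260), had 60.8, 68.6 and 52.3 CPM in the Egr1+/+ mice and 89.8, 71.8 and 103 CPM in the Egr1-/- mice. The groups did not overlap, although Egr1-/- replicate 2 exceeded the highest Egr1+/+ mouse only slightly. The log2 fold change was 0.54 (SE 0.160), with an adjusted p of 0.279 from edgeR. Uqcrfs1, the Rieske iron-sulfur protein, had 123, 129 and 121.5 CPM against 175, 133 and 199.5 CPM, also without overlap, and a log2 fold change of 0.44 (SE 0.155, adjusted p = 0.346). The core proteins Uqcrc1 and Uqcrc2 line the matrix side of the complex. Uqcrc2 had 171, 156 and 160.4 CPM against 227, 179.6 and 275.5 CPM, which did not overlap, with a log2 fold change of 0.49 (SE 0.161, adjusted p = 0.325). Uqcrc1 overlapped, at 0.37 on the log2 scale. Cycs, the soluble carrier between complexes III and IV, had 128, 108 and 94.3 CPM against 130.3, 108 and 160.0 CPM. Only Egr1-/- replicates 1 and 3 exceeded every Egr1+/+ mouse, and the log2 fold change was 0.27 (SE 0.173, adjusted p = 0.643).

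The 5 small subunits of complex III had log2 fold changes of 0.38 for Uqcr11, 0.29 for Uqcrq and Uqcrh, 0.23 for Uqcr10 and 0.11 for Uqcrb. Uqcrq was the member of this group without overlap. Uqcc1, Uqcc2 and Uqcc3, which assist the synthesis and insertion of cytochrome b, had 0.16, 0.19 and 0.08. Uqcc3 had the highest p of the complex. It had 12.4, 12.0 and 10.2 CPM in the Egr1+/+ mice and 10.4, 10.9 and 15.4 CPM in the Egr1-/- mice, so its higher mean came from Egr1-/- replicate 3, and the adjusted p was 0.903. The 7 assembly factors of complexes II and III showed a median of 0.05 on the log2 scale. Of them, 0 had an unadjusted p under 0.05, where 5.06% of all genes were higher and 5.60% lower at that p. The other 38 tested members showed a median of 0.31 and held all 12 genes at that p. The difference between these classes was not tested, and the assembly factors were of low level, between 2.36 and 57.4 CPM in every mouse. The assembly factors outside the rule, described below, had median log2 fold changes of 0.16, 0.25 and 0.24 for complexes III, IV and V. These lay between the medians of the classes above.

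Complex IV held the gene with the lowest p of all members. Cox5a, a matrix-side subunit of cytochrome oxidase (chromosome 9, 57521274 to 57532426), had 18.1, 27.9 and 19.0 CPM in the Egr1+/+ mice and 36.9, 34.9 and 40.9 CPM in the Egr1-/- mice. All Egr1-/- mice lay above all Egr1+/+ mice, and here replicate 2 was close to its own group. Its mean was 21.7 ± 5.39 CPM (SD, n = 3 mice) against 37.6 ± 3.09 CPM, a log2 fold change of 0.80 (SE 0.171). In edgeR the unadjusted p was 0.00118 and the adjusted p 0.180, while DESeq2 gave an adjusted p of 0.00320. With each mouse left out in turn the log2 fold change stayed between 0.67 and 1.02. Of the exons of Cox5a, 12.8% lie opposite those of Gm26631, which had 149 counts over the 6 mice where Cox5a had 5856. The part of this overlap was not tested. Cox6b1, the intermembrane-space subunit, had 82.9, 129.6 and 90.01 CPM against 154, 113 and 169 CPM. Egr1+/+ replicate 2 lay above Egr1-/- replicate 2, so the groups overlapped, with a log2 fold change of 0.53 (SE 0.205, adjusted p = 0.403). Cox6b2, known as the testis form of that subunit, was low, with 2.30, 1.47 and 2.69 CPM against 3.15, 2.74 and 3.23 CPM. It did not overlap, and the log2 fold change was 0.49 (SE 0.260, adjusted p = 0.563).

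The other complex IV members overlapped. Cox7c, Cox7b and Cox6c had log2 fold changes of 0.26, 0.22 and 0.20. Cox5b, the subunit that binds zinc, had the highest p of the complex and the widest spread, with 305, 124 and 246 CPM in the Egr1+/+ mice and 239.7, 178 and 309 CPM in the Egr1-/- mice. Egr1+/+ replicate 2 was the lowest of all 6, and the log2 fold change was 0.11 (SE 0.311, adjusted p = 0.934). Cox7b2, another form known from testis, was not tested for lack of counts, with 0, 4 and 0 reads in Egr1+/+ replicates 1 to 3 and 4, 2 and 1 in Egr1-/- replicates 1 to 3.

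Complex V had the largest number of members. The 5 genes of its head and central stalk had positive log2 fold changes, against 50.1% of all genes, with a median of 0.38. Of these 5, 2 had an unadjusted p under 0.05, where 5.06% of all genes were higher. Atp5a1 and Atp5b, the alternating alpha and beta subunits, were the most abundant members by CPM. Atp5b had 689.7, 695 and 672 CPM in the Egr1+/+ mice and 939, 777 and 1139 CPM in the Egr1-/- mice. The groups were separate, and the Egr1+/+ mice varied little, at 686 ± 11.9 CPM (SD, n = 3) against 952 ± 181 CPM. The log2 fold change was 0.47 (SE 0.161, adjusted p = 0.332 from edgeR). Atp5a1 had 632, 591 and 578 CPM against 719.7, 651 and 973 CPM, without overlap, and a log2 fold change of 0.38 (SE 0.169, adjusted p = 0.470). Atp5c1, the gamma subunit that turns inside the head, had 229.6, 223 and 232 CPM against 271, 235 and 313 CPM. It was separate by a small margin in Egr1-/- replicate 2, with a log2 fold change of 0.26 (SE 0.135, adjusted p = 0.557). Atp5d, the delta subunit of the central stalk (chromosome 10, 80138632 to 80145818), had 16.6, 22.0 and 14.6 CPM against 31.4, 20.6 and 31.7 CPM. It had the lowest p of the complex and yet overlapped, since Egr1-/- replicate 2 lay under Egr1+/+ replicate 2. The log2 fold change was 0.65 (SE 0.203, adjusted p = 0.300). Atp5e, the epsilon subunit, was at 0.22 and overlapped.

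Atp5g1, Atp5g2 and Atp5g3 encode the same mature protein, subunit c of the rotating ring. Atp5g1 had the highest p of the complex, with 2.65, 3.86 and 2.53 CPM in the Egr1+/+ mice and 2.85, 2.91 and 3.72 CPM in the Egr1-/- mice, and a log2 fold change of 0.07 (SE 0.238, adjusted p = 0.943). Atp5g2 had 11.3, 13.8 and 11.6 CPM against 16.6, 13.4 and 15.4 CPM, at 0.31 (SE 0.137, adjusted p = 0.472). Atp5g3 had 15.2, 22.0 and 14.7 CPM against 21.3, 19.4 and 18.9 CPM, at 0.20 (SE 0.165, adjusted p = 0.736). All 3 overlapped, and Egr1+/+ replicate 2 was the highest of its genotype in each. By level per exon length, Atp5g1 made 3.84% ± 0.244 (SD, n = 3) of their sum in Egr1+/+ mice and 3.44% ± 0.600 in Egr1-/- mice, Atp5g2 46.4% ± 2.95 and 48.1% ± 2.00, and Atp5g3 49.7% ± 2.70 and 48.5% ± 2.21. Without division by length, which the long annotated exons of Atp5g1 make uncertain, Atp5g1 made 9.20% ± 0.486 and 8.31% ± 1.4. Atp5g1 has a copy elsewhere of 99.8% identity and Atp5g2 has 2 of 100%. Reads shared with such copies may be missing from the counts, and their part in these shares was not tested. No share per length passed a test of the difference (exact permutation tests, two-sided, p = 0.4, 0.5 and 0.6, each 0.6 after Benjamini-Hochberg adjustment over 3), in a design whose smallest p is 0.1.

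The peripheral stalk holds the head still against the ring. Atp5o, the oligomycin-sensitivity protein at its top, had 71.5, 69.7 and 65.3 CPM in the Egr1+/+ mice and 94.2, 68.6 and 103 CPM in the Egr1-/- mice. It overlapped through Egr1-/- replicate 2, with a log2 fold change of 0.36 (SE 0.155, adjusted p = 0.450). Atp5f1 and Atp5h, subunits b and d, were at 0.22 and 0.10. Atp5j, coupling factor F6, was the member with the lowest fold change, with 71.1, 55.4 and 66.3 CPM against 62.1, 50.6 and 68.8 CPM. The genotypes overlapped, and the log2 fold change was -0.09 (SE 0.148, adjusted p = 0.876). Of the exons of Atp5j, 12.7% lie opposite those of Gabpa, which had 14155 counts over the 6 mice. Exons of higher members also lie opposite other genes, among them Uqcrc2 (19.7%, Pdzd9) and Atp5o (17.5%, D430001F17Rik, and 18.1%, Gm15976). These other genes had 26, 2 and 0 counts. The small membrane subunits Atp5l, Atp5k, Atp5j2 and Atp5mpl had 0.54, 0.43, 0.31 and 0.09, and Atp5s, known as factor B, had 0.31. All 5 overlapped, and Atp5l had the widest error but for Cox5b among all members (SE 0.288).

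**Figure D3:**
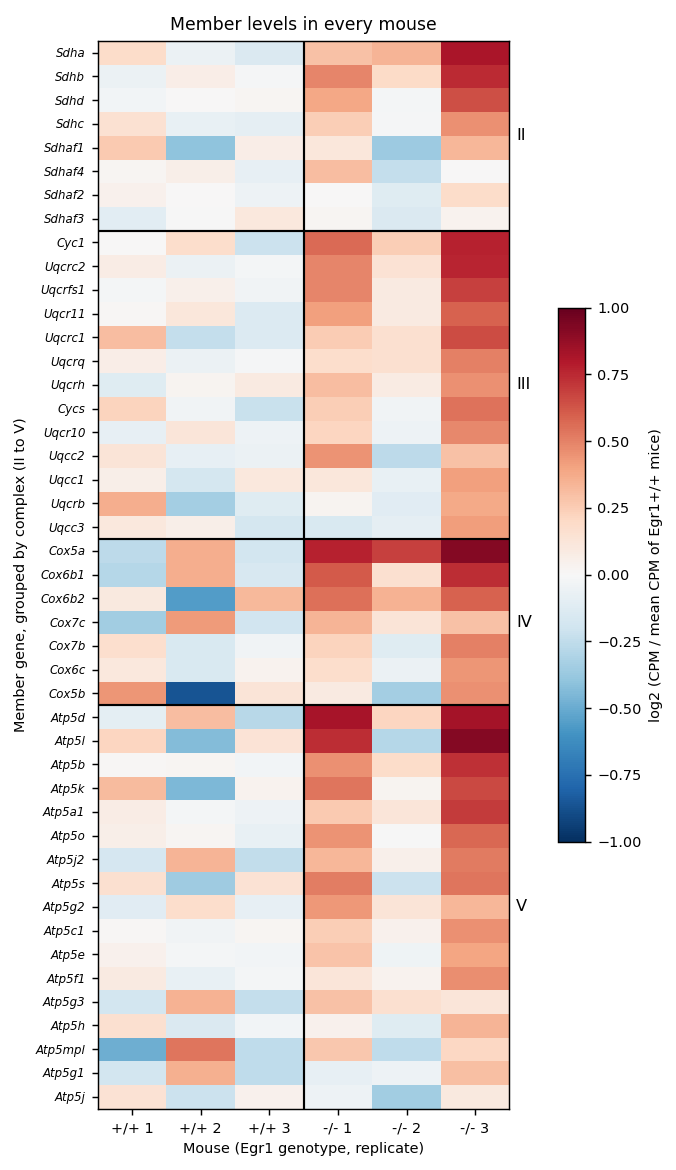
Each row is a tested gene and each column a mouse, and the colour gives log2 of its CPM over the mean of the Egr1+/+ mice, with complexes II to V from top to bottom. Egr1-/- replicate 3 is red in most rows and replicate 2 pale, and in Egr1+/+ replicate 2 some genes are red (Atp5mpl) and others blue (Cox5b).

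Within a genotype, Egr1+/+ replicate 2 stood apart in how its members spread. The log2 level of each gene in each mouse was set against the mean of its genotype. In Egr1+/+ replicate 2 these deviations had an SD of 0.28 over the 45 members, with 8 genes more than 0.3 above and 7 more than 0.3 below. Atp5mpl was the highest there, at 0.53, and Cox5b the lowest, at -0.86. In the other 5 mice the SD was between 0.10 and 0.19. In Egr1-/- replicate 2, 16 genes were more than 0.3 below and 0 above. The highest there, Atp5g3, was at -0.03, so all 45 members lay under the mean of the genotype. That mean includes replicate 3, the highest of its genotype for 39 of the 45. Over all genes of at least 1 CPM the SD was 0.28 in Egr1+/+ replicate 2, within the range of 0.27 to 0.36 over all 6 mice. The members' SD was thus near that of all genes in that mouse and lower in the others. Members and all genes were not matched for level, and the part of level in this difference was not tested. The limit of 0.3 was chosen after the values were seen.

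By level per kilobase of exon, members of a complex lay far apart. In Egr1+/+ mice the highest was Sdhd in complex II (107 CPM per kb), Uqcrb in complex III (239), Cox7b in complex IV (237.5) and Atp5a1 in complex V (191.5). The lowest tested were Sdhaf3, Uqcc1 (7.15), Cox6b2 (1.94) and Atp5g1 (0.613). The 2 core proteins of complex III, present in equal number in the complex, had 44.9 CPM per kb for Uqcrc1 and 63.6 for Uqcrc2, and Atp5a1 and Atp5b, also present in equal number, had 191.5 and 161.8. The length used was that of all annotated exons of a gene, which reached 6443 bases for Atp5l and 4912 for Atp5g1, so levels of genes with long rare exons are too low on this scale. Near-identical copies elsewhere in the genome held at most 1.2% of any member's counts, for Atp5l. Since the multimapping setting of the counting is not given, reads shared with a copy may be missing from both genes. The low counts on copies therefore cannot show that the members' counts are complete.

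**Figure D4:**
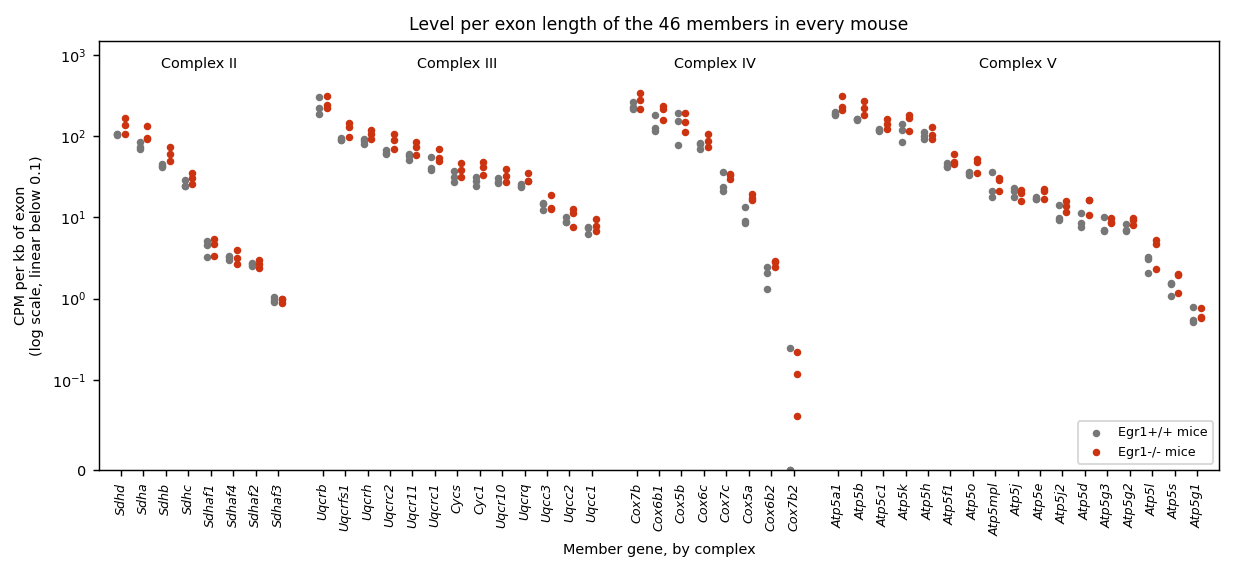
The level per kilobase of exon (log axis, linear under 0.1) is plotted for all 46 members in each Egr1+/+ mouse (grey) and Egr1-/- mouse (red), ordered by complex and by the Egr1+/+ mean. Levels run from under 1 for Sdhaf3, Atp5g1 and Cox7b2 to above 100, and the genotypes overlap or lie close for most genes.

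Other genes of the pathway were described from further lists, whose counts stand against 50.1% of all genes tested with a positive log2 fold change and 5.06% higher at an unadjusted p under 0.05. Of 3 tested assembly factors of complex III outside the rule, all were higher and 1, Bcs1l, which inserts the Rieske protein, had an unadjusted p under 0.05 (log2 fold change 0.60, SE 0.194). Of 23 tested for complex IV, 17 were higher and 6 lower, and 6 of the 23 were higher at an unadjusted p under 0.05, where 5.06% of all genes were. Fastkd5, Coa7 and Coa5 had the lowest p, at 0.76, 0.48 and 0.36 on the log2 scale, and Sco1 and Cmc1 the highest, at 0.07 and -0.06. Of 4 for complex V, Atpaf2 and Atpaf1, chaperones of the head, were at 0.44 and 0.40, Tmem70 at 0.09, and Atpif1 at -0.58. Atpif1, the protein that inhibits ATP hydrolysis by the synthase, ran against the members. It had 27.4, 22.8 and 27.1 CPM in Egr1+/+ mice and 16.6, 17.9 and 17.3 CPM in Egr1-/- mice. These did not overlap, with an SE of 0.117, an unadjusted p of 0.000764 and an adjusted p of 0.165 in edgeR and 0.00967 in DESeq2.

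Subunits encoded by the mitochondrial genome overlapped between the genotypes. Of 5 tested in complexes III to V, 4 were higher and 0 had an unadjusted p under 0.05, with a median log2 fold change of 0.39. Mt-Atp8 (0.49, SE 0.323), mt-Cytb (0.39, SE 0.305) and mt-Atp6 (0.45, SE 0.376) had the lowest p, and mt-Co1 was at -0.03 (SE 0.252). Their summed level was 42210, 42520 and 27690 CPM against 49310, 37350 and 31540 CPM, so Egr1-/- replicate 3, highest for the nuclear members, was the lowest of its genotype here. The files gave mt-Co1 at least 22380 CPM but mt-Atp6 at most 5.91, mt-Co2 at most 2.82 and mt-Co3 at most 0.356 CPM. The near-empty mt-Atp6 and mt-Co2 are among the 4 higher genes and in the median, and the sum stands for mt-Co1, mt-Cytb and mt-Atp8.

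Enzymes that feed ubiquinone beside complexes I and II were higher in 6 of 7 cases, against 50.1% of all genes, and 5 of the 7 were higher at an unadjusted p under 0.05, against 5.06%. Their median log2 fold change was 0.57. Gpd2, mitochondrial glycerophosphate dehydrogenase, had 142, 112 and 109.7 CPM in Egr1+/+ mice and 206.5, 179 and 298 CPM in Egr1-/- mice. It did not overlap, at 0.91 on the log2 scale (SE 0.200, edgeR adjusted p = 0.190, DESeq2 adjusted p = 0.000835). The electron transfer flavoprotein subunit Etfa (0.58, DESeq2 adjusted p = 0.0201) and its dehydrogenase Etfdh (0.57, DESeq2 adjusted p = 0.0351) came next by p, and Sqor (-0.11) and Dhodh (0.18) had the highest p. Of 10 tested regulators, 8 were higher, against 50.1% of all genes, and 4 were higher at an unadjusted p under 0.05, against 5.06%. The coactivators Ppargc1b and Ppargc1a were at 0.92 (SE 0.160) and 1.08 (SE 0.244) and Esrrg at 0.51 (SE 0.165), with edgeR adjusted p-values of 0.155, 0.193 and 0.319 and DESeq2 ones of 0.000292, 0.000924 and 0.154. Tfam and Nrf1 had the highest p, at -0.04 and -0.03. Of 6 carriers of nucleotides, phosphate or protons, 5 were higher and 1, Ucp1, had an unadjusted p under 0.05 (log2 fold change 1.22, SE 0.207, edgeR adjusted p = 0.151, DESeq2 adjusted p = 2.851e-07). Slc25a3 and Ucp3 followed at 0.27 and 0.40, and Ucp2 and Slc25a4, the highest in p, at 0.16 and -0.09.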

How the data were processed

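The authors depleted ribosomal RNA, sequenced strand-specific libraries, mapped the reads to GRCm38 with TopHat2 and Bowtie2, and deposited raw counts per GENCODE gene from featureCounts, 1 column per mouse. The strand and multimapping settings of the counting are not given in the sources used here. The deposited counts went into edgeR 4.0.16 under R 4.3.3 (TMM, filterByExpr, quasi-likelihood test, Benjamini-Hochberg adjustment over 17667 genes at 0.05, no covariate). Groups came from the sample records. DESeq2 1.42.0 and limma 3.58.1 served as alternatives, together with other scalings, filters, covariates and leaving out each mouse. Near-identical copies were found with blastn 2.17.0 (at least 95% identity over at least 50% of a member transcript). Genes were named through GENCODE M21, which matched 46574 of 47069. The code was tested on simulated data.

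Members and lists were chosen with earlier results of these data known. All members are named once. Every mouse is given for catalytic or electron-carrying subunits, for the 3 lowest and the highest p of each complex, and for members lower in Egr1-/- mice or not tested. Of further lists, up to 3 genes of lowest and 2 of highest p are named, and Atpif1 and Gpd2 were chosen for values by mouse after these were seen.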

Additional observations from a re-analysis of the deposited data

How the results depend on the processing

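Across the alternatives the median log2 fold change of the members kept its sign, between 0.13 and 0.38, and 34 of 45 members kept theirs in every alternative. With total counts as the only scaling the median of all genes moved to -0.15 and that of the members to 0.13, which is 0.28 above it. Under this scaling 2 members were higher at an unadjusted p under 0.05, against 0.962% of all genes, and 2 without overlap, against 1.44%. The log2 fold changes that turned under it were those of Sdhaf1 (-0.11), Sdhaf2 (-0.12), Sdhaf4 (-0.13), Uqcc3 (-0.038), Uqcrb (-0.024), Cox5b (-0.054), Atp5g1 (-0.054), Atp5h (-0.041) and Atp5mpl (-0.052), and the median of complex II was -0.003. Among all genes the number called, 3 in the main comparison, was 0 with upper-quartile normalization, with at least 1 CPM in 3 mice and with the replicate block, 1 in limma-voom, 6 with the muscle covariate, 79 with total counts, 372 in DESeq2 and 552 without a filter, where 38261 genes were tested. Members called were 5 without the filter (Cox5a, Atp5d, Cyc1, Atp5l and Cox6b1), 1 in DESeq2 (Cox5a) and 0 in the other alternatives. Without the filter the prior degrees of freedom were infinite against 5.07.

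Leaving out each mouse gave 0 to 59 called genes, the 59 without Egr1-/- replicate 1, 0 called members and members' medians of 0.19 to 0.38. From 4 to 24 members were higher at an unadjusted p under 0.05, against 2.57% and 4.91% of all genes in the same settings. From 11 to 30 were higher without overlap, the 30 against 13.7% of all genes. For the 11 the share over all genes was not computed. Fold changes that turned when a mouse was left out ranged from -0.11 to 0.23 for Sdhaf1, -0.057 to 0.10 for Sdhaf2, -0.093 to 0.031 for Sdhaf3, -0.11 to 0.17 for Sdhaf4, -0.12 to 0.19 for Uqcc3, -0.04 to 0.32 for Uqcrb, -0.19 to 0.37 for Cox5b, -0.059 to 0.29 for Atp5g1, -0.036 to 0.20 for Atp5h, -0.19 to 0.029 for Atp5j and -0.11 to 0.46 for Atp5mpl. The difference in the share of Atp5g1 in its family, -0.399 percentage points, was -0.881 without division by length and -0.713 to -0.114 with each mouse left out. The causes of these differences were not tested. Whether replicate numbers pair the mice is not given in the sources used here. Deviations of same-numbered mice correlated at -0.0888, 0.106 and -0.126 over 17667 genes, and those of differently numbered mice at -0.171 to 0.233. With 3 mice per genotype these values cannot show whether a same-numbered pair was the littermate pair. With the replicate block the members' median was 0.28, 10 were higher at an unadjusted p under 0.05 and 0 were called. The share of all genes higher at that p was not computed for this setting. With 3 mice per genotype the standard errors of members ran from 0.118 to 0.311, and even the member difference with the lowest p, Cox5a at 0.80, did not pass the adjusted threshold in edgeR.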
